A study of Mus musculus with 24 samples.

Results

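The genes described here encode the NRF2, KEAP1 and thioredoxin system in RN2, an acute myeloid leukaemia cell line of the mouse with the genotype Mll-Af9 and NrasG12D. The 10 members were chosen by gene name: Nfe2l2, Keap1, Mafg, Nqo1, Srxn1, Txnrd1, Txn1, Prdx1, Prdx5 and Prdx6. All 10 were found among the 53465 genes of the count table, and all 10 passed the filter on low counts, as did 14249 genes in all. Every cell carried a doxycycline-inducible short hairpin RNA delivered by a retroviral vector. The groups were shOgdh346 at day 4 and day 0 of doxycycline, shOgdh2081 at day 4 and day 0, and the control hairpin shRen713 at day 4 and day 0. Both shOgdh hairpins target Ogdh, which encodes the E1 subunit of the oxoglutarate dehydrogenase complex of the tricarboxylic acid cycle. Day 0 is before doxycycline, and the control cells also received doxycycline up to day 4. Each hairpin was carried by 2 clonal isolates, and each clone and day was sequenced as 2 libraries, so that 24 libraries fall into 6 groups of 4. A clone is 1 isolate of the line, and nothing in the labels says whether the libraries of a clone and day came from separate cultures. A p-value here measures the spread between these clones.

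NRF2, the product of Nfe2l2, is a transcription factor that is held at a low level because KEAP1 presents it to a ubiquitin ligase for degradation. When oxidants or electrophiles modify cysteines of KEAP1, NRF2 escapes, pairs with a small MAF protein such as MAFG and binds antioxidant response elements near its target genes. Among those targets are Nqo1, Srxn1, Txnrd1 and Prdx1, and the thioredoxin system they feed passes electrons from NADPH through thioredoxin reductase and thioredoxin to the peroxiredoxins, which reduce peroxides. Because NRF2 is regulated largely at the protein level, the RNA of Nfe2l2 does not report its activity.

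The core of the antioxidant response element is TGACNNNGC, where N is any base. It was searched on both strands in windows that run from 250 bases before to 50 bases after the gene starts of RefSeq (build GRCm38.p6). Windows were found for 9 members, 11 windows in all because Txnrd1 has 3 annotated starts. The core was present in windows of 5 members, against 14% of the 27025 genes and 12.4% of the 32851 windows searched. The lines below show each match with 10 bases on either side, written on the strand that reads the core forward, with the core in capitals, because these are the letters by which promoters of this system are usually compared.
Nfe2l2 (chr2:75704885-75704913, minus strand): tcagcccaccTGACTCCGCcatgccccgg
Srxn1 (chr2:152105542-152105570, minus strand): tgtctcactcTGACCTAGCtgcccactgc
Txnrd1 (chr10:82859104-82859132, minus strand): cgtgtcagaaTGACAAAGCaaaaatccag
Prdx1 (chr4:116685456-116685484, minus strand): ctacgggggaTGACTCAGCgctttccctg
Mafg (chr11:120633751-120633779, plus strand): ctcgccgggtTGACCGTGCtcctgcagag
The core began 240 bases before the start in Nfe2l2, 92 before in Txnrd1, 133 before in Prdx1 and 222 before in Mafg, and lay 29 bases into the gene in Srxn1. Of the 3 starts of Txnrd1, the window of the second holds the core, and its distance is counted from there. The other 2 windows, with the one at the start in the deposited table, hold none. The core was not in the windows of Keap1, Nqo1, Txn1 and Prdx5. A match describes letters, not a bound site, and windows of this length leave out more distant elements. The Prdx1 core also holds TGACTCA, the AP-1 motif, which occurs on either strand in 5.2% of all windows and in windows of 2 members, Prdx1 and Srxn1.

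The 250 bases before the start (the second for Txnrd1) are given for Txnrd1 and Prdx1, a gene that rose and one that fell on Ogdh knockdown. Both are written 5′ to 3′ on the plus strand, which is the strand of each gene, with the core in capitals as its reverse complement.
Txnrd1 (chr10:82858956-82859205): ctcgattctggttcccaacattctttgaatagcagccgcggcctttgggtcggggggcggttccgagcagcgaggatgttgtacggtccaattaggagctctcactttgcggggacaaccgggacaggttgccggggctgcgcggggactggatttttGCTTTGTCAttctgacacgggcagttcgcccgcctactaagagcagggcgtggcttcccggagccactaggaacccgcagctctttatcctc
Prdx1 (chr4:116685349-116685598): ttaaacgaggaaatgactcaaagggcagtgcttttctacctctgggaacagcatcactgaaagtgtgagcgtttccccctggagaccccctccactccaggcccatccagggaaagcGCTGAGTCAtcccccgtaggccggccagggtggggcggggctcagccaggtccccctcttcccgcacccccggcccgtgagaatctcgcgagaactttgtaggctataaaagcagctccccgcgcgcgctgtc

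Total counts per library ran from 7209186 to 20705468. Levels are given in CPM, counts divided by the scaled library size. Ogdh averaged 44.8 ± 14.2 CPM in shOgdh346 and 52.4 ± 23.6 CPM in shOgdh2081 at day 4, against 225 ± 27.8 CPM in shRen713 (SD over clones, n = 2 each). At day 0 it averaged 138 ± 13.8 CPM in shOgdh346 and 187 ± 30.2 CPM in shOgdh2081, against 228 ± 27.4 CPM in shRen713, a log2 difference of -0.50 ± 0.13 before induction that did not pass the test (adjusted p = 1.0). The net change of Ogdh, as defined below, was -1.76 ± 0.18 (adjusted p = 0.00040). Other programmes moved with the knockdown. The summed level of 13 neutrophil markers was 7500 to 45400 CPM in Ogdh libraries against 561 to 1570 CPM in control libraries at day 4. At day 0 it was 584 to 3280 CPM against 411 to 2150 CPM. Of these 13 markers, 11 rose and none fell, and none was lower at an unadjusted p under 0.05 by edgeR. For the counts of this paragraph, the shares among all genes tested were 17.9% risen and 19.8% fallen. Of 8 macrophage markers tested out of 9, 4 rose. The sum of all 9 was 502 to 2100 CPM in Ogdh libraries against 173 to 300 CPM in control libraries at day 4. All 8 proliferation genes fell, with sums of 1750 to 2550 CPM in Ogdh libraries against 3550 to 4020 CPM in control libraries at day 4. The part of these programmes in the changes below was not tested, and in bulk RNA fewer cells of a type and less RNA per cell cannot be told apart. Of 15 genes of other blood, lymphoid, stromal and epithelial cells, 6 were tested and 4 rose. The sum of all 15 was 32.4 to 154 CPM in Ogdh libraries against 11.6 to 26 CPM in control libraries at day 4. Cd3e and Col1a2 had no counts in any library. All 8 genes used to describe the line itself, among them Ptprc, Spi1, Hoxa9 and Meis1, were detected. Of these, 3 rose (Ptprc, Itgam and Spi1) and 2, Kit and Mpo, fell. Itgam is also counted among the neutrophil markers, and counts of 3 and 2 among 8 are not given as particular to this list.

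The comparison asked of each gene was whether its change over the days of doxycycline differed between an Ogdh hairpin and the control hairpin. The net change used below is the log2 change of the Ogdh clones, day 4 minus day 0, minus that of the control clones, and it is given with its standard error. A gene rose or fell where the adjusted p of this net change was under 0.05. Over both Ogdh hairpins, 4 members rose (Nqo1, Srxn1, Txnrd1 and Prdx5) and 3 fell (Keap1, Txn1 and Prdx1), while Nfe2l2, Mafg and Prdx6 did not pass the test. Among all genes tested 17.9% rose and 19.8% fell. The median net change was 0.26 for the members and -0.002 for all genes. Against these shares, counts of 4 and 3 among 10 genes are not given as particular to the members.

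**Figure D1:**
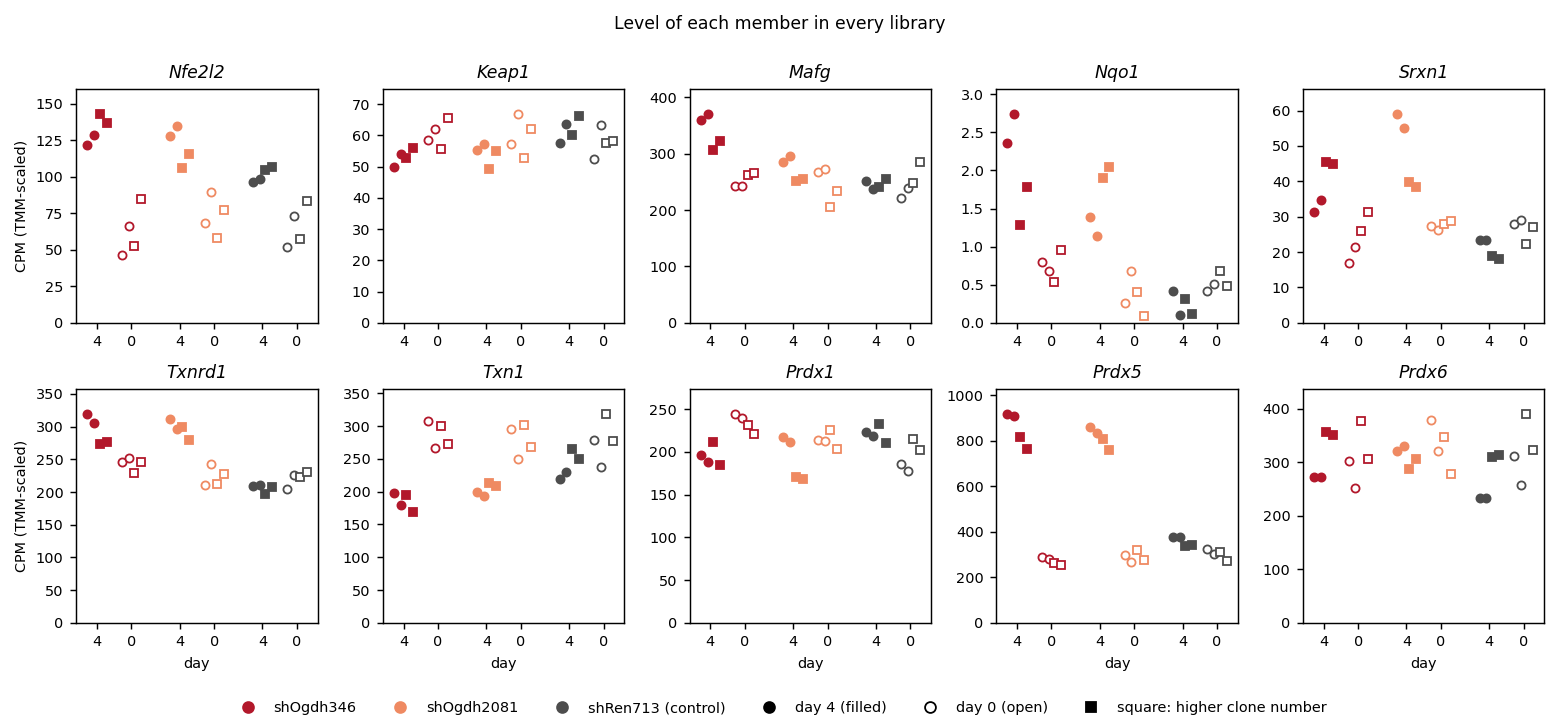
Level of each member in CPM (vertical axis, from 0) in every library, at day 4 (filled) and day 0 (open), for shOgdh346, shOgdh2081 and shRen713, with the clones of a hairpin as circles and squares. Prdx5 lies between 758 and 916 CPM in the day 4 libraries of both Ogdh hairpins and between 339 and 377 CPM in those of the control.

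Among the enzymes the largest net changes were those of Nqo1, Prdx5 and Srxn1. Txnrd1 and Prdx1, both named above as NRF2 targets, moved by 0.42 and -0.41. Prdx5 encodes a peroxiredoxin found in mitochondria, peroxisomes and the cytosol. At day 4 Prdx5 stood at 916 and 907 CPM in clone 1 and 817 and 765 CPM in clone 5 of shOgdh346, at 858 and 835 CPM in clone 3 and 807 and 758 CPM in clone 5 of shOgdh2081, and at 375 and 377 CPM in clone 2 and 339 and 340 CPM in clone 7 of shRen713. The day 0 libraries stood at 291, 281, 261 and 255 CPM in shOgdh346, at 299, 269, 322 and 277 CPM in shOgdh2081, and at 324, 302, 310 and 272 CPM in shRen713, in the same order of clones and libraries, which values of the other genes follow too. Every Ogdh library of day 4 was above every control library, whereas at day 0 the libraries of all 3 hairpins overlapped. The clones of the Ogdh hairpins changed by 1.61, 1.6, 1.56 and 1.36 on the log2 scale, against 0.26 and 0.20 in the control clones. Prdx5 rose by a net 1.30 ± 0.10 (adjusted p = 6.7e-05). With shOgdh346 the net change was 1.38 ± 0.12 (adjusted p = 0.00012), and with shOgdh2081 it was 1.23 ± 0.12 (adjusted p = 0.00034). The call held in all 40 alternative fits, with net changes of 1.24 to 1.38. Exons of Prdx5 overlap those of Trmt112 on the opposite strand over 409 bases. Trmt112 had 5986 counts in all libraries and Prdx5 122662.

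Srxn1 encodes sulfiredoxin, which restores peroxiredoxins whose active cysteine has been overoxidised. The day 4 libraries had 31.4 and 34.8 CPM in clone 1 and 45.5 and 44.9 CPM in clone 5 of shOgdh346, 59.0 and 55.2 CPM in clone 3 and 39.8 and 38.4 CPM in clone 5 of shOgdh2081, and 23.3, 23.4, 18.8 and 18 CPM in the libraries of shRen713. Before doxycycline the level was 17, 21.4, 26 and 31.3 CPM in shOgdh346, 27.5, 26.1, 27.8 and 28.9 CPM in shOgdh2081, and 27.8, 29.0, 22.3 and 27 CPM in shRen713. The groups did not overlap at day 4 and overlapped at day 0. All 4 Ogdh clones changed upwards, by 0.44 to 1.08, and both control clones downwards, by -0.29 and -0.39. Srxn1 rose by a net 1.08 ± 0.18 (adjusted p = 0.0019), by 1.05 ± 0.21 with shOgdh346 and by 1.11 ± 0.21 with shOgdh2081 (adjusted p = 0.0046 and 0.0051). The call was lost in 1 of 40 alternative fits, without the clone as a block (1.08, adjusted p = 0.0515).

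Nqo1 encodes a quinone reductase that is among the most used readouts of NRF2. It was the member with the lowest level, and its values rest on few reads: 154 counts over the 8 Ogdh libraries of day 4 and 9 counts over the 4 control libraries of day 4, with 48 and 20 counts at day 0. The level at day 4 was 2.36, 2.74, 1.28 and 1.78 CPM in shOgdh346, 1.39, 1.14, 1.90 and 2.04 CPM in shOgdh2081, and 0.421, 0.101, 0.315 and 0.114 CPM in shRen713. The level at day 0 was 0.801, 0.683, 0.536 and 0.955 CPM in shOgdh346, 0.262, 0.681, 0.401 and 0.0886 CPM in shOgdh2081, and 0.413, 0.504, 0.681 and 0.486 CPM in shRen713. The lowest Ogdh library of day 4 was above the highest control library, and the day 0 libraries overlapped. Nqo1 rose by a net 2.91 ± 0.68 (adjusted p = 0.0095), to which the control contributed a change of -1.16 ± 0.61 that did not pass the test (adjusted p = 0.29). Of 39 alternative fits (a filter at 5 CPM removes the gene) the call was lost in 2, without control clone 7 (2.57, adjusted p = 0.121) and with replicate 2 of day 0 alone (2.72, adjusted p = 0.0640).

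Txnrd1 encodes the cytosolic thioredoxin reductase, a selenoprotein that recharges thioredoxin. At day 4 its level was 319 and 305 CPM in clone 1 and 273 and 276 CPM in clone 5 of shOgdh346, 312 and 296 CPM in clone 3 and 300 and 280 CPM in clone 5 of shOgdh2081, and 209, 210, 197 and 208 CPM in shRen713. At day 0 its level was 210 to 252 CPM in the 8 Ogdh libraries, with a median of 236 CPM, and 205 to 231 CPM in the control libraries. The day 4 groups did not overlap. Txnrd1 rose by a net 0.42 ± 0.09 (adjusted p = 0.0065), by 0.33 ± 0.10 with shOgdh346 (adjusted p = 0.035) and by 0.50 ± 0.10 with shOgdh2081 (adjusted p = 0.0083). The call was lost without control clone 2 (0.46, adjusted p = 0.0699) and without control clone 7 (0.35, adjusted p = 0.156), where a single control clone was assumed to vary like the others.

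Txn1, unlike its reductase, fell. Txn1 encodes cytosolic thioredoxin, the small dithiol protein that hands electrons to peroxiredoxins. At day 4 its level was 198, 180, 195 and 169 CPM in shOgdh346, 199, 193, 213 and 208 CPM in shOgdh2081, and 219, 230, 265 and 250 CPM in shRen713. Before doxycycline the values were 308, 267, 300 and 273 CPM in shOgdh346, 295, 249, 302 and 268 CPM in shOgdh2081, and 279, 237, 318 and 277 CPM in shRen713. The day 4 groups did not overlap, with the control above, and the day 0 groups did. Every clone had less Txn1 at day 4 than at day 0, with changes of -0.71, -0.65, -0.48 and -0.46 in the Ogdh clones and -0.21 and -0.23 in the control clones. The net change was -0.36 ± 0.09 (adjusted p = 0.010). With shOgdh346 alone it was -0.46 ± 0.10 (adjusted p = 0.0068), and with shOgdh2081 alone -0.25 ± 0.10 did not pass the test (adjusted p = 0.084). The net call was lost without the clone block (-0.36, adjusted p = 0.0827), without control clone 2 (-0.35, adjusted p = 0.14) and without control clone 7 (-0.38, adjusted p = 0.119). A processed copy named Txn-ps1 had 14 counts in all against 60796 for Txn1.

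Prdx1 encodes the abundant cytosolic peroxiredoxin that thioredoxin reduces. At day 4 its level was 196, 188, 211 and 185 CPM in shOgdh346, 217, 212, 171 and 168 CPM in shOgdh2081, and 223, 219, 232 and 210 CPM in shRen713. At day 0 it was 203 to 244 CPM in the Ogdh libraries, with a median of 224 CPM, and 178 to 215 CPM in the control libraries. The day 4 groups overlapped through clone 3 of shOgdh2081 and clone 5 of shOgdh346. Prdx1 fell by a net -0.41 ± 0.12 (adjusted p = 0.026), and at day 0 the Ogdh clones stood above the control by 0.19 ± 0.08 without passing the test (adjusted p = 1.0). At day 4 alone the difference was -0.21 ± 0.11 (adjusted p = 0.19). The net call was lost without the clone block (-0.41, adjusted p = 0.0806), without control clone 2 (-0.33, adjusted p = 0.25), without control clone 7 (-0.53, adjusted p = 0.0786) and without shOgdh346 clone 1 (-0.38, adjusted p = 0.0573). Prdx6, the peroxiredoxin that uses glutathione rather than thioredoxin, ranged from 272 to 357 CPM in Ogdh libraries and from 234 to 313 CPM in control libraries at day 4. Its net change of 0.18 ± 0.09 did not pass the test (adjusted p = 0.16). It was 0.09 without replicate 1 of control clone 7 at day 0 and 0.11 without replicate 1 of control clone 2 at day 0, and it passed with a filter at 5 CPM (0.25, adjusted p = 0.0439). Copies named Prdx6b and Prdx6-ps2 had no counts.

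**Figure D2:**
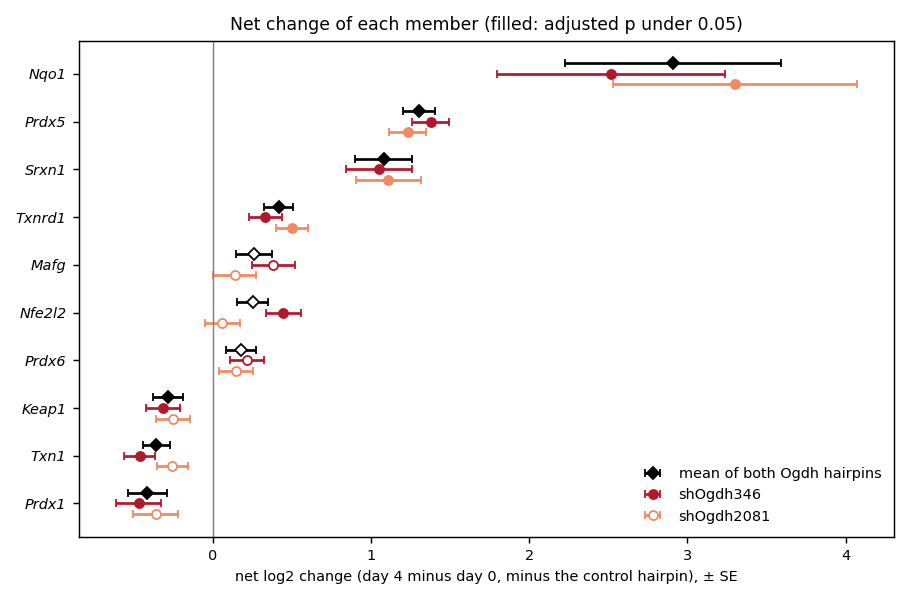
Net log2 change of each member (horizontal axis, day 4 minus day 0, minus the control hairpin, ± SE) for the mean of both Ogdh hairpins (black diamonds), shOgdh346 and shOgdh2081 (circles), filled where the adjusted p was under 0.05. Nqo1, Prdx5, Srxn1 and Txnrd1 lie above 0 for both hairpins, and Keap1, Txn1 and Prdx1 below.

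Among the regulators, Keap1 was the 1 member called over both hairpins. Keap1 encodes the adaptor that holds NRF2 for degradation. Day 4 libraries held 50.0, 53.9, 52.7 and 55.8 CPM in shOgdh346, 55.3, 57.2, 49.1 and 55.1 CPM in shOgdh2081, and 57.7, 63.5, 60.0 and 66.1 CPM in shRen713. Day 0 libraries held 52.6 to 66.8 CPM in the Ogdh libraries and 52.5 to 63.2 CPM in the control libraries. The day 4 groups touched without overlapping, and the highest Ogdh library stood at 57.2 CPM against 57.7 CPM for the lowest control library. Keap1 fell by a net -0.28 ± 0.09 (adjusted p = 0.038), and this call was lost in 18 of 40 alternative fits, among them DESeq2 (-0.25, adjusted p = 0.158), the fit without control clone 2 (-0.33, adjusted p = 0.182) and the fit without control clone 7 (-0.26, adjusted p = 0.309). An antisense gene, Gm16754, overlaps its exons over 510 bases with 828 counts against 14278, and the strand setting of the counting is not given in the sources used here.

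Nfe2l2, the gene for NRF2, was higher at day 4 than at day 0 in every clone, the control clones included. The level at day 4 was 122, 129, 143 and 137 CPM in shOgdh346, 128, 135, 106 and 116 CPM in shOgdh2081, and 96.4, 98.4, 105 and 107 CPM in shRen713. At day 0 it was 46.6, 66.6, 52.3 and 84.6 CPM in shOgdh346, 68.3, 89.4, 58.3 and 77.0 CPM in shOgdh2081, and 52.0, 72.9, 57.2 and 83.3 CPM in shRen713. Of the Ogdh libraries of day 4, 1 lay within the control range. Nfe2l2 was the only member called in the control clones, where it rose by 0.64 ± 0.08 between the days (adjusted p = 0.0041). No member fell there by edgeR, with 3 lower at an unadjusted p under 0.05 and 1 called lower by DESeq2. Among all genes 4.44% rose and 2.44% fell in the control by edgeR. Of the 14249 genes tested, 1635 were lower there at an unadjusted p under 0.05, and DESeq2 called 308 lower. The net change of Nfe2l2 over both hairpins was 0.25 ± 0.10 and did not pass the test (adjusted p = 0.068), while shOgdh346 alone gave 0.45 ± 0.11 (adjusted p = 0.014) and shOgdh2081 alone 0.06 ± 0.11 (adjusted p = 0.73). The shOgdh346 call was lost in 9 of 40 alternative fits, among them those without control clone 2 (0.42, adjusted p = 0.131), control clone 7 (0.45, adjusted p = 0.111) and shOgdh346 clone 1 (0.31, adjusted p = 0.0911), and the value was 0.28 without replicate 1 of shOgdh346 clone 1 at day 0 (adjusted p = 0.0593). The shOgdh2081 value turned negative in 4 of 40 fits, down to -0.07, each without 1 day 0 library.

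The day 0 libraries limit this value. In 6 of 6 clones replicate 2 of day 0 held 1.31 to 1.62 times the Nfe2l2 level of replicate 1, whereas at day 4 that ratio was 0.958 to 1.09. The net change ran from 0.12 without replicate 2 of control clone 2 at day 0 to 0.40 without replicate 1 of control clone 7 at day 0 (adjusted p = 0.0192), and it passed the test in 9 of 40 alternative fits. The part of this replicate difference in the result was not tested.

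Mafg encodes a small MAF protein that pairs with NRF2 on DNA. At day 4 its level was 359, 370, 306 and 323 CPM in shOgdh346, 285, 296, 251 and 255 CPM in shOgdh2081, and 252, 238, 240 and 255 CPM in shRen713. All libraries of shOgdh346 were above the control, and those of shOgdh2081 clone 5 were within its range. The net change of 0.26 ± 0.12 did not pass the test (adjusted p = 0.11). It was 0.38 ± 0.13 with shOgdh346 (adjusted p = 0.052), and 0.14 ± 0.13 with shOgdh2081 (adjusted p = 0.47). With shOgdh346 Mafg passed the test in 16 of 40 alternative fits, among them DESeq2 (0.42, adjusted p = 0.0429), RLE scaling (0.42, adjusted p = 0.0438) and upper-quartile scaling (0.43, adjusted p = 0.0344). Without shOgdh346 clone 1 that value was 0.20 (adjusted p = 0.314) and the mean net change was 0.16. Mafg shares 124 exonic bases with Sirt7 on the same strand, and reads there cannot be assigned to one of them.

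**Figure D3:**
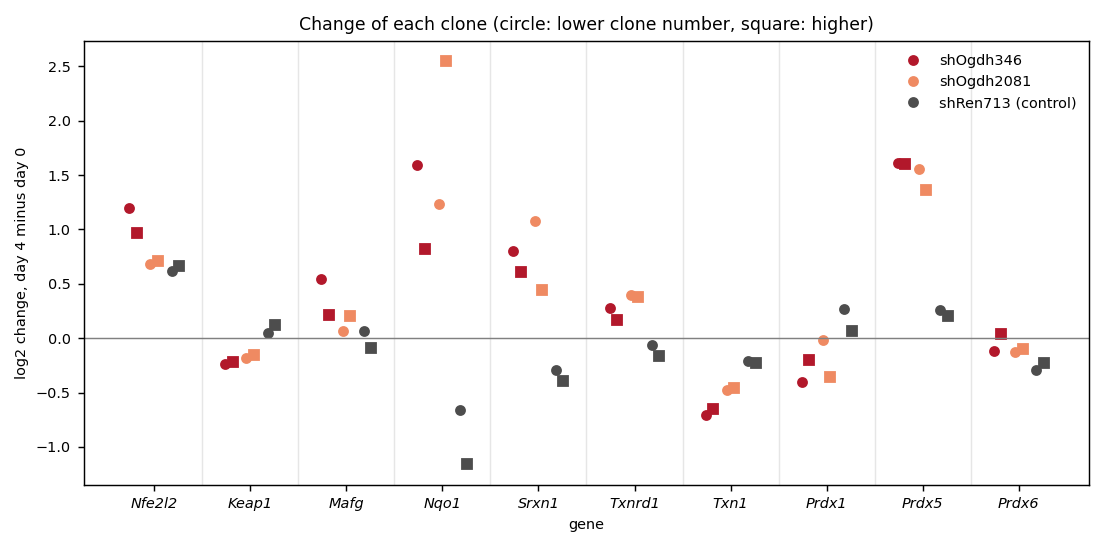
Change of each clone between the days (vertical axis, log2 of day 4 minus day 0) for the 10 members, with the clones of shOgdh346, shOgdh2081 and shRen713 side by side. For Nfe2l2 all 6 clones are above 0, from 0.62 to 1.20, whereas for Srxn1 the 4 Ogdh clones are above and the 2 control clones below.

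The hairpins were also compared with each other. With shOgdh346, 5 members rose (the 4 above and Nfe2l2) and 3 fell, where 16.4% of all genes rose and 18.4% fell. DESeq2 called 5 risen, with Mafg in and Nqo1 out (adjusted p = 0.0837), and 1 fallen. Its totals over all genes with shOgdh346 were 1988 risen and 1956 fallen, against 2339 and 2626 by edgeR. Of 40 alternative fits, the shOgdh346 call was lost in 25 for Keap1 (DESeq2 adjusted p = 0.188), in 9 for Nfe2l2 and in 8 for Txnrd1. With shOgdh2081, the same 4 rose and none was called lower by edgeR or DESeq2, where 13.6% of all genes rose and 14.2% fell. Keap1, Txn1 and Prdx1 were lower with shOgdh2081 at an unadjusted p under 0.05, as were 2925 of all genes. The difference between the hairpins passed the test for none of the members by edgeR or DESeq2, against 0.0561% and 0.0491% of all genes, 8 and 7 genes, higher and lower by edgeR, and 75 and 26 genes by DESeq2. Of the members, 1 differed at an unadjusted p under 0.05, namely Nfe2l2, with shOgdh346 above shOgdh2081 by 0.39 ± 0.11 (adjusted p = 0.30). At that threshold 777 of the 14249 genes tested were higher and 644 lower, so this count is not given as particular to the members. A p that misses the threshold does not show that the hairpins act alike.

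At day 4 alone, the Ogdh clones stood above the control for 4 members, the same 4 that rose, by edgeR, and for 6 by DESeq2, which added Nfe2l2 (0.31, adjusted p = 0.0471) and Mafg (0.29, adjusted p = 0.0332). Among all genes 12.7% were higher and 14.2% lower by edgeR, 1751 and 1954 genes. DESeq2 called more genes, 2396 higher and 2422 lower. The edgeR differences were 2.87 ± 0.49 for Nqo1 (adjusted p = 0.016), 1.20 ± 0.11 for Prdx5 (adjusted p = 0.0078), 1.04 ± 0.23 for Srxn1 (adjusted p = 0.028) and 0.50 ± 0.09 for Txnrd1 (adjusted p = 0.018). None of the 4 was called with either control clone left out, Srxn1 was not called without shOgdh346 clone 5 (0.91, adjusted p = 0.0602), and Txnrd1 was not called without shOgdh346 clone 1 (0.45, adjusted p = 0.0507). No member was called lower by edgeR, with 2 lower at an unadjusted p under 0.05 and 1 by DESeq2. Of the 13747 genes tested by edgeR at day 4, 3038 were lower at that unadjusted p. By libraries, 4 members had every Ogdh library of day 4 above every control library, as did 18.1% of all genes, and 2 members, Keap1 and Txn1, had every one below, as did 18.7% of all genes. At day 0 no member differed between Ogdh and control clones, at an unadjusted p under 0.05 or adjusted, by edgeR or by DESeq2, and 0.0% of all genes were called higher and 0.0% lower by edgeR. At day 0 the unadjusted p was under 0.05 for 103 genes higher and 177 lower, and DESeq2 called 0 higher and 1 lower.

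Per length, the members spanned a wide range of levels. For each member the deposited transcript length equals the merged exonic bases of all its annotated transcripts. The order below thus depends on the annotation. In CPM per kilobase of the deposited transcript length, averaged over the 12 clone and day sums, Txn1 had 235 and Prdx5 224, followed by Prdx1 with 68.6, Prdx6 with 64.7, Mafg with 47.4 and Txnrd1 with 34.8. Nfe2l2 had 24.3, Keap1 12.3, Srxn1 11 and Nqo1 0.592 CPM per kilobase. Neighbours in this order overlapped over the 12 sums, with 3 exceptions. Prdx5 (122 to 413) was above Prdx1 (55.2 to 80.1), Nfe2l2 (14 to 36.6) was above Keap1 (10.8 to 13.5), and Srxn1 (6.58 to 20.2) was above Nqo1 (0.143 to 1.62).

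Other NRF2 targets were taken from a list of 27 genes, of which 23 were tested. Of these, 12 rose, and none fell by edgeR, at an unadjusted p under 0.05 or by DESeq2. Among all genes tested 17.9% rose and 19.8% fell by edgeR. The median net change was 0.68. Slc7a11, the cystine transporter subunit that supplies cysteine for glutathione, averaged 468 ± 288 CPM in Ogdh clones (SD, n = 4) and 17.3 ± 2.53 CPM in control clones (SD, n = 2) at day 4, a net change of 4.44 ± 0.59 (adjusted p = 0.0052). Hmox1, the haem-degrading oxygenase, averaged 135 ± 35.7 CPM and 18.8 ± 0.199 CPM, a net change of 2.6 ± 0.10 (adjusted p = 3.6e-06). Sqstm1, which encodes the autophagy receptor p62 that binds KEAP1, averaged 349 ± 34.5 CPM and 124 ± 7.83 CPM, a net change of 1.45 ± 0.10 (adjusted p = 3.7e-05). The others that rose were Gsr, G6pdx, Abcc1, Ftl1, Fth1, Osgin1, Blvrb, Htatip2 and Cbr3.

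The list did not move as 1 block. Both subunits of the glutamate-cysteine ligase, the first enzyme of glutathione synthesis, missed the test, with net changes of 0.26 ± 0.26 for Gclm (adjusted p = 0.47) and -0.11 ± 0.09 for Gclc (adjusted p = 0.40). The pentose phosphate genes were divided: G6pdx rose by 0.68 ± 0.13 (adjusted p = 0.0036, and 0.0532 without control clone 7), and Pgd (0.38 ± 0.15, adjusted p = 0.074) and Tkt (-0.20 ± 0.11, adjusted p = 0.17) did not pass. Pgd passed in 7 of 40 alternative fits, DESeq2 among them (0.41, adjusted p = 0.0370). The neutrophil and macrophage marker sums given above moved with these targets, and their part was not tested. A list of 10 genes of the ATF4 stress programme, which also controls Slc7a11, holds Atf4 itself. Of these, 7 fell, Atf4 among them, and 1, Sesn2, rose, where 19.8% of all genes fell and 17.9% rose. Ddit3 (0.70 ± 0.25, adjusted p = 0.058) and Trib3 (-0.40 ± 0.29, adjusted p = 0.31) did not pass. The median was -1.45, with sums of 774 to 1270 CPM in Ogdh libraries against 2200 to 2500 CPM in control libraries at day 4. The part of this programme in the change of Slc7a11 was not tested. Cth fell by -3.10 ± 0.18 (adjusted p = 1.8e-05), Phgdh by -2.36 ± 0.56 (adjusted p = 0.030, lost without control clone 2 or control clone 7) and Asns by -2.0 ± 0.12 (adjusted p = 2.3e-05). Without control clone 2 or control clone 7, 7 and 6 of the NRF2 targets rose, and without the clone block 7 rose. Slc7a11 was not called without control clone 2 (4.31, adjusted p = 0.104) or control clone 7 (4.54, adjusted p = 0.102), whereas Hmox1 and Sqstm1 were called in all 40 alternative fits.

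Of 17 genes that act on KEAP1 or NRF2, 16 were tested, 5 rose and 2 fell, where 17.9% of all genes rose and 19.8% fell, and the median was 0.13. These counts are not given as particular to the list. Bach1, the repressor that competes with NRF2 for the same DNA elements, averaged 267 ± 57.6 CPM in Ogdh clones and 94.8 ± 3.59 CPM in control clones at day 4, a net change of 1.5 ± 0.11 (adjusted p = 5.4e-05). Maff, a small MAF protein, averaged 18.9 ± 6.4 CPM and 7.40 ± 1.15 CPM, a net change of 1.63 ± 0.23 (adjusted p = 0.00084). Sqstm1 also stands on this list, and the other 2 genes called were Gsk3b and Crebbp, neither of which was called with control clone 2 or control clone 7 left out. Cand1, which exchanges cullin ligase adaptors, fell by -0.34 ± 0.09 (adjusted p = 0.014), and Dcaf11, a substrate receptor of another cullin ligase, fell by -0.30 ± 0.10 (adjusted p = 0.035), a call lost in 15 of 40 alternative fits, with DESeq2 among them (-0.27, adjusted p = 0.132). Cul3, the scaffold of the KEAP1 ligase, had a net change of 0.04 ± 0.09 (adjusted p = 0.78). Without control clone 2, and likewise without control clone 7, 3 of these genes rose and none fell.

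A list of 21 other genes held thioredoxin, glutaredoxin, peroxiredoxin and methionine sulfoxide reductase genes, with Txnip and the sestrins Sesn1, Sesn2 and Sesn3. All were tested, 4 rose and 3 fell, against 17.9% and 19.8% of all genes, so that the counts are near the background. The median was -0.01. Sesn2, among those that rose, also stands on the ATF4 list. Glrx, cytosolic glutaredoxin, averaged 314 ± 20.1 CPM in Ogdh clones and 117 ± 7.50 CPM in control clones at day 4, a net change of 1.52 ± 0.11 (adjusted p = 4.8e-05). The methionine sulfoxide reductases Msra and Msrb1 rose by 1.34 ± 0.11 (adjusted p = 6.8e-05) and 0.64 ± 0.09 (adjusted p = 0.00087), and Sesn2 by 0.58 ± 0.15 (adjusted p = 0.014, lost without control clone 2 or control clone 7). Txnl1, a thioredoxin-like protein associated with the proteasome, fell by -0.49 ± 0.08 (adjusted p = 0.0019). Prdx3, the mitochondrial peroxiredoxin, fell by -0.43 ± 0.10 (adjusted p = 0.0091), and Glrx3 by -0.40 ± 0.10 (adjusted p = 0.012). The mitochondrial partners Txn2 (0.17 ± 0.11, adjusted p = 0.25) and Txnrd2 (-0.08 ± 0.12, adjusted p = 0.65) did not pass. Of 7 other antioxidant enzymes tested out of 10, none rose by edgeR, at an unadjusted p under 0.05 or by DESeq2, and the superoxide dismutases Sod2 (-0.48 ± 0.11, adjusted p = 0.0067) and Sod1 (-0.47 ± 0.11, adjusted p = 0.0077) fell, with a median of -0.05 for the list. Without control clone 2 or 7, 1 of the thioredoxin list and none of the antioxidant list fell.

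**Figure D4:**
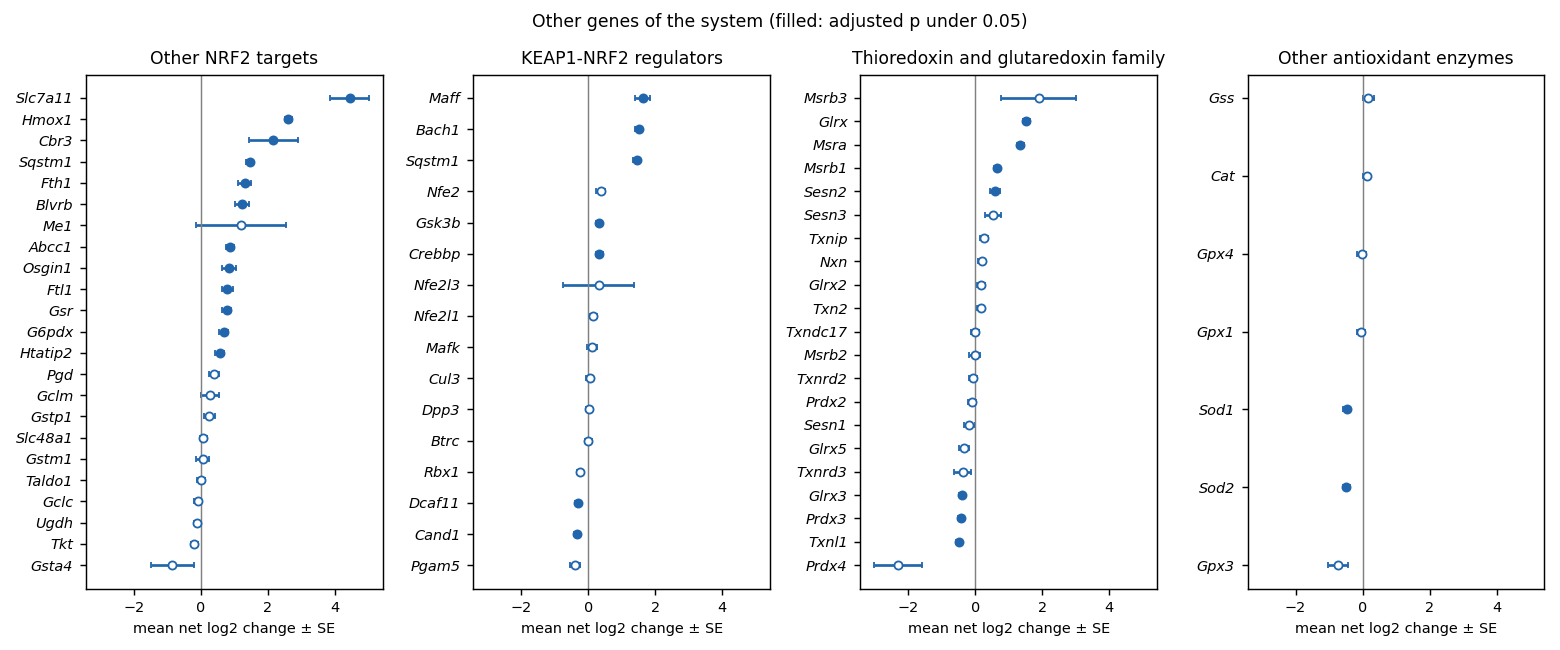
Mean net log2 change ± SE (horizontal axis) of the tested genes of 4 lists, filled where the adjusted p was under 0.05. Slc7a11 at 4.44 and Hmox1 at 2.6 lead the NRF2 targets, none of which is filled below 0, and Sod1 and Sod2 are the only filled points among the other antioxidant enzymes.

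The genes most like 3 members across the 12 clone and day sums were sought by Pearson's r of log2 CPM. The 9155 genes searched had a mean of at least 5 CPM. Genes on any list used here, the members included, were left out of the search, as were predicted gene models and clone names. The values are a description over sums that share hairpin, day and clone. For Nfe2l2 these were Acvr1b (r = 0.975), Rab10 (0.972) and Map3k1 (0.963). For Txnrd1 they were Dhrs11 (0.996), Rasal3 (0.974) and Ggnbp2 (0.964), and for Nqo1 Dhrs11 (0.951), Zfp654 (0.941) and Cdh17 (0.936).

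The members lie on 8 chromosomes of the build GRCm38, with positions as in the deposited table. Nfe2l2 (ENSMUSG00000015839) lies at 75675513 to 75704641 on chromosome 2 and Srxn1 (ENSMUSG00000032802) at 152105516 to 152111376 on the same chromosome. Txn1 (ENSMUSG00000028367) lies at 57943373 to 57956411 and Prdx1 (ENSMUSG00000028691) at 116685544 to 116700822 on chromosome 4. Keap1 (ENSMUSG00000003308) lies at 21229730 to 21239361 on chromosome 9, Nqo1 (ENSMUSG00000003849) at 107388225 to 107403206 on chromosome 8, and Txnrd1 (ENSMUSG00000020250) at 82833951 to 82897712 on chromosome 10. Mafg (ENSMUSG00000051510) lies at 120625117 to 120633600 on chromosome 11, Prdx5 (ENSMUSG00000024953) at 6906697 to 6910106 on chromosome 19 and Prdx6 (ENSMUSG00000026701) at 161240112 to 161251219 on chromosome 1. All are protein-coding genes, and the counts are of whole genes, so that isoforms are not told apart.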

How the data were processed

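The authors deposited whole-number read counts per gene for 24 polyadenylated RNA libraries, with transcript lengths in bases. The submitters' processing notes give mm10 (GRCm38) and name featureCounts 1.6.3, STAR 2.6.1a, Trimmomatic 0.36 and FastQC 0.11.5 without giving their roles. Per the labels' protocols, a human build, another counter and an RPKM matrix were named, which mouse identifiers and whole counts do not match. The strand setting is not given in the sources used here.

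For each clone and day, the counts of its 2 libraries were added, giving 12 sums. edgeR 4.0.16 (R 4.3.3) was used with TMM scaling, filterByExpr and the robust quasi-likelihood test, blocked by clone, with 1 day 4 term for each hairpin (3 residual degrees of freedom), and p-values were adjusted by Benjamini-Hochberg over 14249 genes. Levels at 1 day were fitted on the 6 sums of that day (13747 genes at day 4, 13125 at day 0). Each standard error follows from the estimate and its F value. CPM use TMM-scaled library sizes. DESeq2 1.42.0, other scalings and filters, fits without the block, single libraries, and leaving out each clone and library were tried. The scripts were tested on simulated data.

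The clone pairs the days per the labels, and the deviations of a clone at day 4 and day 0 from their group means correlated (r = 0.603 to 0.838). The chi-square per gene between libraries of a clone and day was 6.78 to 10.3 at day 0 and 1.60 to 2.94 at day 4, so no pair was a repeat of 1 library.

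All members are named. From each other list, up to 3 genes with the largest rise and 3 with the largest fall were named among those with an adjusted p under 0.05 and a mean of at least 5 CPM, and a few more to complete a pathway step, chosen after their values were seen. The members and lists were chosen with earlier results of these data known.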

Additional observations from a re-analysis of the deposited data

Results flagged for a closer look

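Of 60 groups of 4 libraries, 1 held a library that stood apart from the others. In the day 4 libraries of shRen713, Txnrd1 stood at 209 and 210 CPM in clone 2 and at 197 and 208 CPM in clone 7, and the gap below the lowest library was 0.843 of the whole range, over Dixon's critical value for 4 samples. Chance alone passes that limit in about 1 of 20 groups. Without that library the net change of Txnrd1 was 0.40 (adjusted p = 0.0077).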

How the results depend on the processing

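The net change was refitted in 40 alternatives (39 for Nqo1). The mean net change of both hairpins kept its sign for the 10 members. Among the other genes named from the 4 lists of the system it turned for Cul3 (from -0.015 to 0.079 with 1 clone left out) and Txnrd2 (0.0050 with replicate 1 of day 0 alone), neither of which was called. Counts under an alternative come first, with the count of the main analysis in brackets where it is given. Without the clone as a replicate block, the paired design, 0 members fell (3 in the main analysis), 2 rose and 0 fell with shOgdh346 (5 and 3), 0 rose in the control (1), 7 NRF2 targets rose (12), 3 regulators rose and 1 fell (5 and 2), and 0 antioxidant enzymes fell (2). With 24 libraries and the clone block plus replicate block, 7 members rose (4), 3 fell with shOgdh2081 (0), 2 differed upwards between hairpins (0), 3 rose and 2 fell in the control (1 and 0), 1 NRF2 target fell (0), 4 regulators fell (2), and 8 thioredoxin genes rose and 5 fell (4 and 3). With 24 libraries fitted singly, 2 members fell with shOgdh2081 (0), 2 rose and 3 fell in the control, 3 were lower at day 4 (0), 1 NRF2 target fell, 4 regulators fell, and 7 thioredoxin genes rose and 5 fell. With DESeq2, 1 member fell with shOgdh346 (3), 1 fell in the control, 1 was lower at day 4 and 1 regulator fell. With a mean of at least 5 CPM, 1 member fell with shOgdh346 and 1 regulator fell. RLE scaling, upper-quartile scaling and no filter gave 1 regulator fallen, and no filter gave 5 thioredoxin genes fallen. With replicate 1 of day 0 alone, 2 members fell in the control and 3 regulators rose, and with replicate 2 alone, 1 member fell with shOgdh2081, 0 rose in the control and 1 regulator fell. With 12 sums in 6 groups, 2 members were lower at day 4. Leaving out 1 clone or library, members risen ran from 2 to 6 and fallen from 0 to 3, with shOgdh346 from 2 to 6 and 0 to 3, with shOgdh2081 from 1 to 4 and 0 to 1, in the control from 0 to 1 and 0 to 2, and at day 4 from 0 to 4 higher and 0 to 1 lower. In the lists these ranges were 6 to 14 NRF2 targets risen, 3 to 6 regulators risen and 0 to 4 fallen, 3 to 5 thioredoxin genes risen and 1 to 6 fallen, and 0 to 3 antioxidant enzymes fallen. Without control clone 2 and without control clone 7, 1156 and 991 of all genes rose (2549 in the main analysis). By the mean net change, 1129 of all genes rose and 1603 fell without the clone block, against 2549 and 2818 in the main analysis. These counts were 3721 and 3901 with the clone block plus replicate block, and 3359 and 3498 with 24 libraries singly. DESeq2 gave 2128 and 2151, and a mean of at least 5 CPM gave 2305 and 2311. The cause of each shift was not tested. Nqo1 rests on few reads, 9 in the control at day 4, and 2 clones a hairpin limit every value.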

Other observations

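At day 0 the replicate number of a library moved several members together across hairpins. In 6 of 6 clones replicate 2 was below replicate 1 for Txn1 (ratios of 0.844 to 0.910), Prdx1 (0.898 to 0.995), Prdx5 (0.860 to 0.977) and Prdx6 (0.799 to 0.850), and above it for Keap1 (1.01 to 1.20) and Txnrd1 (1.02 to 1.16). At day 4 the ratio of Prdx6 was 0.986 to 1.07, with replicate 2 above in 3 of 6 clones.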
